A study of Homo sapiens with 2 samples.

Results

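The peaks described here are those that lie inside protein-coding genes and away from the genes' ends. Each of them has its summit, the position of highest signal, within a protein-coding gene of RefSeq on GRCh38 and more than 1 kb from the start or end coordinate of every protein-coding gene. On chromosomes 1 to 22 and X, 256 of 1564 listed peaks met this rule, which was 16.4% (95% Wilson interval 14.6 to 18.3%). They lay in 248 genes. The whole list held 1645 peaks.

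The cells were F36P, a human erythroleukaemia line. They carried either the empty MSCV-PIG retroviral vector (Vector, labelled WT) or the same vector with ERG joined to an AM tag (AM-ERG, labelled as ERG overexpression). Both were kept for 4 days in puromycin at 1 µg/ml before chromatin immunoprecipitation with an antibody to the tag. The labels give 1% formaldehyde, 20 minutes of MNase digestion and 10 µg of chromatin for both groups. The labels give 1 library per group, and the data are 1 list of peaks, so no value has a replicate error and the groups cannot be tested against each other. Which library gave the list is not stated. Everything below compares positions, genes or sequences within that list. Intervals are at 95% and cover counting error only. Read depth per library was unknown.

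ERG belongs to the ETS family of transcription factors, which bind DNA at a short core of letters, GGAA, most strongly where it stands in a longer sequence such as CCGGAAGT. Such factors are known to bind at promoters and at enhancers, and many enhancers lie in introns. Many genes also have several transcription starts. The coordinates of a gene record span all of its transcripts, so a promoter used by a shorter transcript can lie far inside the record, where it looks like a site in the gene body.

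The interior peaks were therefore set against the transcription starts listed by RefSeq for each host gene. Of the 256 peaks, 210 lay in a gene with at least 1 listed start, and 105 of those (50%, 43.3 to 56.7%) had the summit within 1 kb of a start of the gene they were in. The sequences below show the 7 strongest such sites for which at least 100 bases before the start fall inside the peak, together with the strongest interior peak of all, in RARA, which instead lies near the start of a noncoding RNA. They are shown because the start, the peak and the ETS letters can be read together. Each is the part of the 250 bases before the start that lies inside the peak, from RefSeq GRCh38.p14, 5′ to 3′ in the direction of transcription. The stretch runs up to the base before the start, except for LOC105371934, where the peak ends before it reaches the start. Capitals mark CCGGAA or its reverse complement TTCCGG. ATAD1, RPL6 and TRIP12 were chosen for this display after their values were seen.
TNPO3, chr7:129055112-129055293, minus strand: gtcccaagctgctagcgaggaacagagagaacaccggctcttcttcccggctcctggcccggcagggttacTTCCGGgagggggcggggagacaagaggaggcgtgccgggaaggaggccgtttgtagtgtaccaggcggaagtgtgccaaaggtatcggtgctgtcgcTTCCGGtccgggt
STAU1, chr20:49188335-49188555, minus strand: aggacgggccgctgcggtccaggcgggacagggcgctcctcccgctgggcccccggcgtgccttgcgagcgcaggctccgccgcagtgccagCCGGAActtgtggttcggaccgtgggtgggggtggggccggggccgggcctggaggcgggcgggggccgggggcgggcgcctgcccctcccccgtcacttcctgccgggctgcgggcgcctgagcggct
MYADM, chr19:53869141-53869390, plus strand: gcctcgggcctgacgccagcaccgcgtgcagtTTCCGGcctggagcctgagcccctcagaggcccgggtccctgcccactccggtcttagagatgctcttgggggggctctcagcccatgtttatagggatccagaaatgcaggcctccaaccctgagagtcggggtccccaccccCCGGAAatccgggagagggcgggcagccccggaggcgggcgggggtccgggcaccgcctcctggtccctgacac
ATAD1, chr10:87818227-87818434, minus strand: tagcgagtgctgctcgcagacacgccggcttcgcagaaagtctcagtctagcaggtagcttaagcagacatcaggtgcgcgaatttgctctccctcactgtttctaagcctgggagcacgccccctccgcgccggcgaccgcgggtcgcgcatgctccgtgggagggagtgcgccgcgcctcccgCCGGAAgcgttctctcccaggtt
ASNS, chr7:97872409-97872541, minus strand: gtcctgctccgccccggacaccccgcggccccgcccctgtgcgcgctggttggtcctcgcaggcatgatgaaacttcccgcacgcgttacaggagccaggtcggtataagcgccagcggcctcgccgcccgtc
RPL6, chr12:112409286-112409535, minus strand: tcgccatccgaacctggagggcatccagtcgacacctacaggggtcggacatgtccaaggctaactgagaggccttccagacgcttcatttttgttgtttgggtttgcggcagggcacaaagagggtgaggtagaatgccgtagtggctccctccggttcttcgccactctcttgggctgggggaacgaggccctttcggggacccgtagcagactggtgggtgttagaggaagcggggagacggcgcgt
TRIP12, chr2:229921680-229921929, minus strand: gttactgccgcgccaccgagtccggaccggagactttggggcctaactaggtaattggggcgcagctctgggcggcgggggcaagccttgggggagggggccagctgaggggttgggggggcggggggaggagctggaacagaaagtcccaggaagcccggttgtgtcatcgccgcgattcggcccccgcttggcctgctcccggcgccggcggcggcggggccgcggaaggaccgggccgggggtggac
LOC105371934, inside RARA, chr17:40322644-40322774, minus strand: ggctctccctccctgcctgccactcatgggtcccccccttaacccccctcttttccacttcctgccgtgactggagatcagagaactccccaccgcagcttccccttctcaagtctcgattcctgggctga

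TNPO3, which encodes a nuclear import receptor for splicing factors, had a fold enrichment of 12.8 over local background (the authors' value, as are all folds below), and its summit was 36 bp after the listed start. CCGGAA or TTCCGG began 111 and 13 bases before that start. STAU1, which encodes a double-stranded RNA-binding protein, had a fold of 10.3 with the summit 6 bp after the start, and its match began 129 bases before the start. MYADM, a myeloid-associated membrane protein gene, had a fold of 8.22 with the summit 191 bp before the start and matches at 218 and 74 bases before it. The first of these lay 24 bp from the summit. ATAD1, an ATPase that removes mislocalised proteins from the mitochondrial outer membrane, had a fold of 7.45 and a match 23 bp from the summit. ASNS, the asparagine synthetase gene (fold 11.6), RPL6, a ribosomal protein gene (7.45), and TRIP12, a ubiquitin ligase gene (7.39), had no match in the window of 300 bases around the start. The RARA peak, of 23.3 fold, had none in the window of the noncoding gene LOC105371934 either. These 8 sites thus include strong peaks both with and without CCGGAA. The summits in ASNS, TRIP12 and RARA lay outside the windows searched, so no match says only that CCGGAA is not in that window. Of the longer forms of GGAA, only CCGGAA and CCGGAAGT were counted. On either strand GGAA itself occurs 5 times in the windows of LOC105371934 and RPL6. In those of ASNS and TRIP12 it occurs 3 times. Other forms of an ETS site at these peaks were therefore not assessed.

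The 256 interior peaks fell into 4 groups by what lay within 1 kb of the summit. The first was the 105 peaks near a start of their host gene, 41.0% of all 256. Another 26 (10.2%) were near an end of a noncoding gene. A further 92 (35.9%) lay in genes with a listed start but near neither, and are called start-distant below. The last 33 (12.9%) were in genes for which no start was listed and which had no noncoding gene end nearby. For those 33, nearness to a start of the host gene could not be assessed. Of the 26 near a noncoding gene, only 13 had a host with a listed start, so the others could not be assessed for it either. The 33 include 12.1% with a fold of 7 or more, against 13.0% of the start-distant peaks.

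Sequence near an internal start was a very small part of the gene interiors. It made up 9.21 Mb, or 0.755% of the 1219 Mb that lay inside protein-coding genes and over 1 kb from their ends, and it held 41.0% of the interior peaks. Its density was 11.4 peaks per Mb (exact Poisson interval 9.33 to 13.8). Within 1 kb of coding gene ends the density was 13.3 peaks per Mb (12.5 to 14.2), and the 2 intervals overlap. That sequence covers both the start and the end of every gene, so these densities do not compare starts with starts. Counted per listed start, 3.22% of internal starts and 6.72% of starts at a gene's outer end had a summit within 1 kb. Internal and outer starts also differ in CpG content, as given below. Start-distant sequence had 0.0956 peaks per Mb (0.0771 to 0.117), lower than near internal starts by a factor of 119. Sequence near another, noncoding gene was between them at 0.748 peaks per Mb (0.489 to 1.10). Interior sequence of genes with no listed start had 0.155 (0.107 to 0.218).

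**Figure D1:**
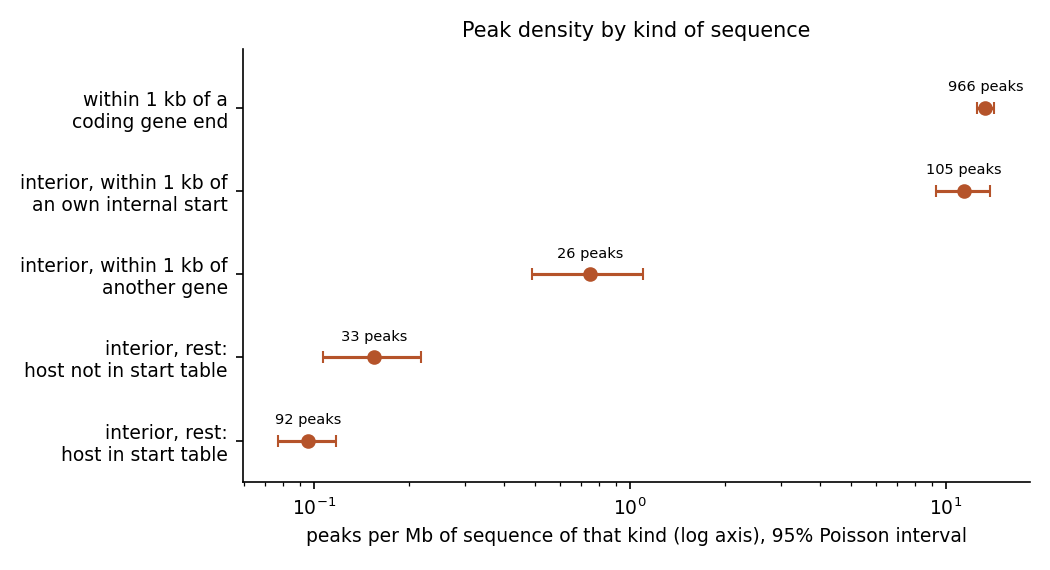
Peaks per Mb of each kind of sequence on a log axis, with exact 95% Poisson intervals and the number of peaks. Interior sequence within 1 kb of a start of the host gene has 11.4 per Mb. Sequence at coding gene ends, which takes in both the start and the end of each gene, has 13.3. The start-distant interior is lowest (0.0956).

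Within the 1 kb by which these peaks were chosen, most summits lay close to the start. Their median distance was 191 bp (150 to 210), and 71 of the 105 were within 300 bp. No distance above 1 kb was possible, so short distances follow in part from the choice. The median signed position was 52 bp after the start (interval 29 before to 101 after), and 62 of 105 (59.0%, 49.5 to 68.0%) were on the transcribed side. Peaks at coding gene ends were measured to the nearest listed start of any coding gene, a wider choice than the starts of the host gene. Of 919 such peaks on chromosomes with listed starts, 775 were within 1 kb of one. They had a median position of 87 bp after it (66 to 104), with 63.7% (60.3 to 67.1%) on the transcribed side. Within 300 bp of the start were 77.8% (74.7 to 80.6%) of these and 67.6% (58.2 to 75.8%) of the 105 interior peaks. With the different choice of starts, these shares are not like for like.

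**Figure D2:**
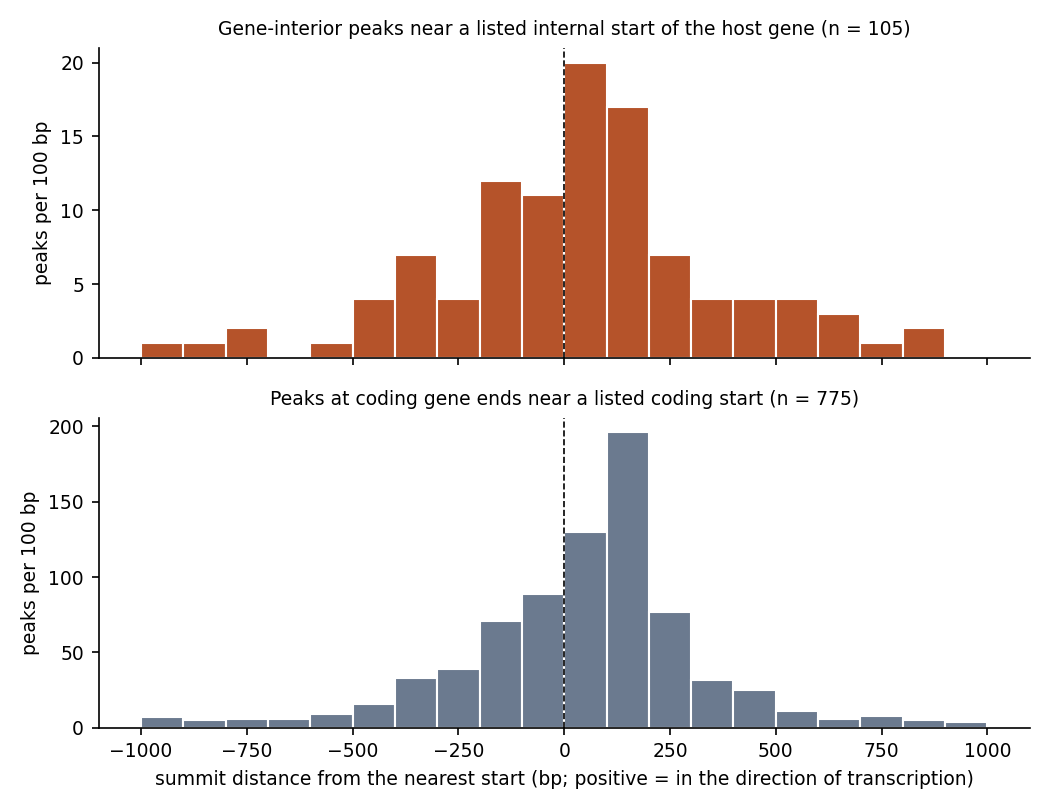
Summit distance from the nearest listed start in bins of 100 bp, with positive values in the direction of transcription. Starts are those of the host gene for 105 gene-interior peaks (top) and of any coding gene for 775 peaks at coding gene ends (bottom). Both distributions are highest in the 200 bp after the start.

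Not every start in a gene had a peak. Over all protein-coding genes 4995 internal starts were listed, and 161 of them (3.22%) had a summit within 1 kb. Of 16825 starts at the outer 5′ end of a gene, 1130 had one (6.72%). The same peak can count for several listed starts that lie close together. Among the 103 genes that hosted a peak at an internal start, 8 (7.77%, 3.99 to 14.6%) also had a peak within 1 kb of either end of the gene, where the share over all 19974 protein-coding genes was 5.86%. The other 95 had their peak at the internal start and none at the record's ends. For 44 of the 103 genes (42.7%, 33.6 to 52.4%) no start was listed within 1 kb of the outer 5′ end. The genes were chosen for a peak near a start inside them, so this share cannot be read against that of all genes. For 26 of the 103 exactly 1 start was listed. In 98 of the 103 a listed start was itself more than 1 kb from every coding gene end. In the others only the summit was, and all are counted as internal below. These peaks were mostly in the 5′ part of the gene: 81 of 105 (77.1%, 68.2 to 84.1%) were nearer to the 5′ than to the 3′ end, and the median distance from the 5′ end was 8.26 kb (5.16 to 14.5). The peaks were chosen for lying near a listed start, so their position follows that of the starts. The position of internal starts without a peak is not given here.

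The letters in the start windows differed between starts with and without a peak. A window is the 250 bases before and 50 bases from the start on, as RefSeq GRCh38.p14 gives them. CCGGAA, counted on both strands, was in 41 of the 103 distinct windows of the interior peaks, which was 39.8% (30.9 to 49.5%). Only 34 of the 105 summits lay inside their window, and 16 of those 34 windows held CCGGAA (47.1%, 31.5 to 63.3%). CCGGAA was in 11.2% (10.4 to 12.1%) of the 4829 windows of internal starts without a peak within 1 kb and in 21.1% of all 21943 coding windows. The longer CCGGAAGT, every match of which also holds CCGGAA, was in 10.7% (6.07 to 18.1%), 1.62% and 5.33% of these windows. The 4-letter core GGAA alone was in 97.1% of the interior peaks' windows and in 95.2% of all coding windows, so at this length it did not separate them. GATAA, the core of sites of the erythroid GATA factors, was in 10.7% (6.07 to 18.1%) of the interior peaks' windows and in 18.6% of all coding windows. Other letters with no ETS core were also more frequent at starts with an interior peak than at internal starts without a peak. GGGCGG, the GC box, was in 72.8% (63.5 to 80.5%) against 39.6%, the E-box CACGTG in 11.7% (6.79 to 19.3%) against 6.05%, and TGACGTCA, the cyclic AMP response element, in 2.91% (0.995 to 8.22%) against 1.16%, the last within the interval. The higher share was thus not limited to the ETS letters. For outer starts the share with CCGGAA was 54.2% (51.3 to 57.1%) with a peak and 21.5% without.

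Base composition moved with these shares. The windows of interior peaks had a median of 27 CpG pairs and 66.0% GC, those of internal starts without a peak 9 CpG pairs and 56.7% GC. Internal starts were therefore grouped by CpG pairs. Of those with 0 to 9 pairs 0.393% had a peak within 1 kb, of those with 10 to 19 pairs 4.64%, with 20 to 29 pairs 7.99% and with 30 or more 6.16%. Within each of the upper groups the share was higher where CCGGAA was present: 10.4% (6.18 to 17.0%) against 3.60% (2.45 to 5.26%) at 10 to 19 pairs, 13.1% (8.75 to 19.2%) against 6.44% (4.64 to 8.86%) at 20 to 29, and 14.3% (10.1 to 19.9%) against 4.03% (2.84 to 5.69%) at 30 or more. The intervals at 20 to 29 pairs overlap. All these intervals treat listed starts as independent. Starts that lie close together can share the same peak and part of their window, so the intervals may be too narrow. At 0 to 9 pairs, 0 of 124 starts with CCGGAA had a peak (Wilson upper bound 3.0%). Of the 4995 internal starts 2547 had 0 to 9 pairs, and of the 16825 outer starts 4035. In the same 4 groups, from low to high, 1.07%, 5.90%, 9.57% and 9.01% of outer starts had a peak within 1 kb. In the 41 peaks whose window held CCGGAA, the nearest match was a median of 134 bp (88 to 209) from the summit, and 15 of them had it within 100 bp. Their median fold of 4.89 (4.29 to 5.77) and that of the 64 peaks without it, 4.43 (4.22 to 4.77), had overlapping intervals. Of the 20 peaks of highest fold near an internal start, 12 held CCGGAA in the window, where 41 of all 105 did. A relation between the letters and fold was not tested.

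**Figure D3:**
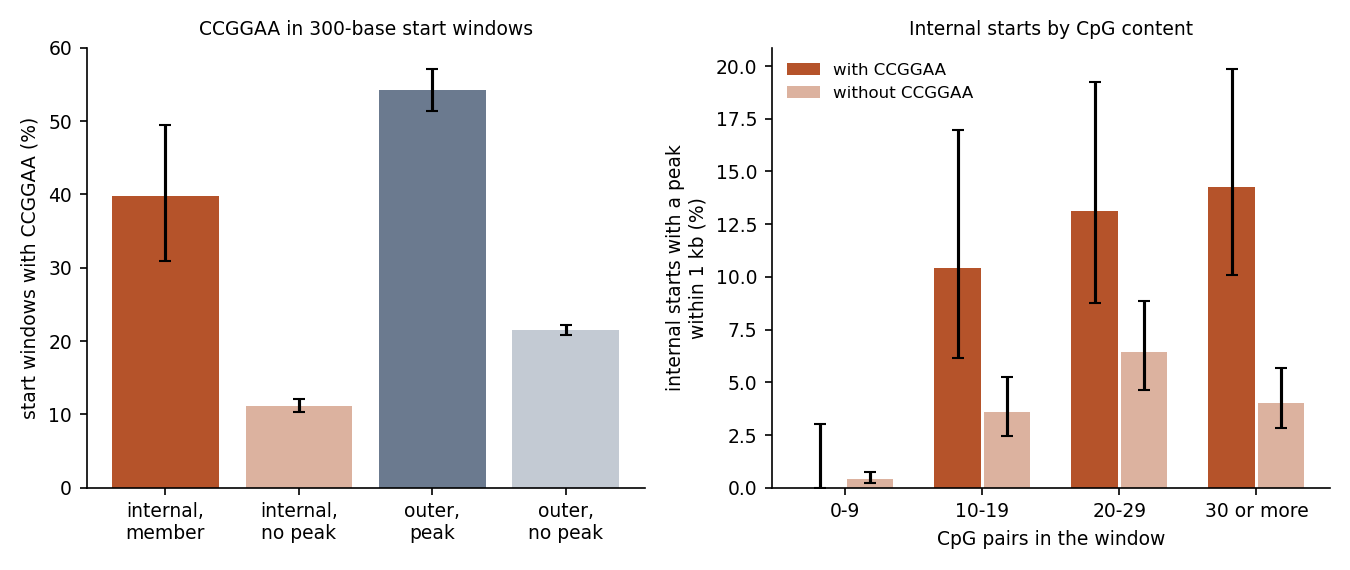
Left, percent of 300-base start windows with CCGGAA on either strand, with Wilson intervals: 39.8% at internal starts with a gene-interior peak, 11.2% at internal starts with no peak, 54.2% and 21.5% at outer starts with and without a peak. Right, percent of internal starts with a peak within 1 kb by the number of CpG pairs, with and without CCGGAA; in the 3 upper groups the share is higher with the letters.

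The interior peaks had a median fold of 4.77 (4.60 to 4.87, range 2.52 to 23.3), against 4.87 (4.77 to 4.98) at gene ends and 4.66 over all 1564 peaks, and the intervals of the first 2 overlap. A fold of 7 or more was reached by 35 of 256 (13.7%, 10.0 to 18.4%), by 14.5% of gene-end peaks and by 12.4% of all. The number of fragments piled up at the summit, recovered from the authors' fold and p-value, had a median of 19 (18 to 21, range 10 to 74), and the local background a median of 3.06 fragments. A background above 2 times the median of all peaks was found for 13 interior peaks (5.08%, 2.99 to 8.49%), against 3.52% (2.53 to 4.88%) of gene-end peaks and 41.8% of peaks outside genes. Median folds of the groups were 4.67 (4.35 to 4.89) near an internal start, 4.92 (4.45 to 5.75) near a noncoding gene, 4.79 (4.51 to 4.98) for start-distant peaks and 4.83 (4.22 to 5.14) where no start was listed, and these intervals overlap. By distance, the median fold was 4.63 for peaks 1 to 2 kb from the nearest coding gene end, 4.85 at 2 to 10 kb, 4.76 at 10 to 50 kb and 4.48 beyond 50 kb.

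**Figure D4:**
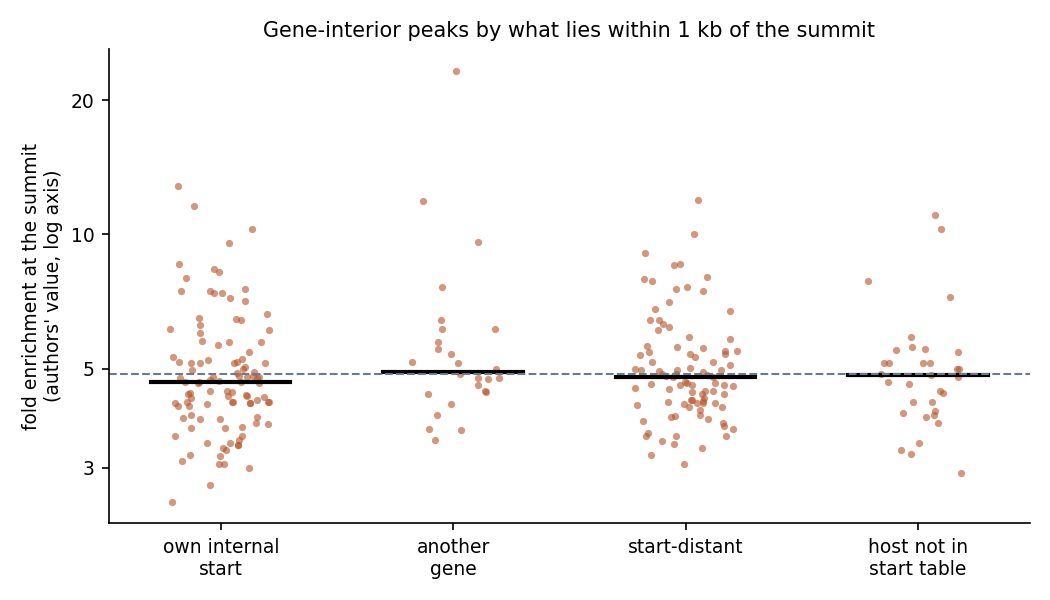
Fold enrichment of each of the 256 gene-interior peaks on a log axis, by what lies within 1 kb of the summit, with black bars at the group medians and a dashed line at the median of gene-end peaks (4.87). The medians are 4.67, 4.92, 4.79 and 4.83 from left to right, and the highest point is RARA at 23.3.

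Of the 20 interior peaks with the highest fold, 8 were near a start of the host gene, 3 near a noncoding gene, 7 start-distant and 2 in genes with no listed start. Besides TNPO3, ASNS, STAU1 and MYADM, the first kind included PRKD2, a protein kinase D gene (fold 9.57, summit 202 bp after the start, 49 fragments), and ERCC1, which encodes a subunit of a DNA excision repair nuclease (8.56, 158 bp after, 42 fragments). ERCC1 holds 1 CCGGAAGT match in its window. AEN, the gene of a nuclease known to be induced by p53, had a fold of 8.37 with its summit 52 bp after the start. LIMD2, a LIM domain gene, had a fold of 8.01 with its summit 587 bp after the start, and an end of the noncoding gene LOC729683 was 801 bp from the summit. Noncoding gene ends were also near the summits in MYADM (MYADM-AS1, 92 bp) and TNPO3 (the pseudogene TPI1P2, 149 bp). The summits of this kind lay 1.12 kb (TNPO3) to 31.0 kb (STAU1) from the nearest coding gene end.

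The strongest interior peak, in RARA, the retinoic acid receptor alpha gene, was at chr17:40322644-40323194 with 67 fragments on a background of 1.92. It lay 4.63 kb after a listed RARA start, 13.7 kb inside the gene, and 347 bp from an end of LOC105371934, 348 bp before its start. The next interior peak by fold was that of TNPO3 at 12.8. UBXN8 (fold 11.9) and EHD2, which encodes a membrane-remodelling ATPase of caveolae (9.62, 56 fragments), also had noncoding genes nearby, LOC105379356 at 213 bp and LOC124904733 at 586 bp. EXOSC4, an RNA exosome subunit gene among the most significant interior peaks, had a fold of 7.63 at 502 bp from LOC124902038. Among the 26 peaks of this kind 20 were beside a long noncoding RNA or antisense RNA, 5 beside a pseudogene and 1 beside a microRNA gene. Of all 256 interior peaks, 43 (16.8%, 12.7 to 21.9%) had a noncoding gene end within 1 kb, 17 of them together with a start of the host gene. The share was 25.5% (22.8 to 28.3%) for gene-end peaks.

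The start-distant peaks had no listed start and no noncoding gene end within 1 kb. Among them was the peak in ERG itself, at chr21:38376435-38376927, with a fold of 11.9 and 53 fragments on a background of 3.52. It lay 122 kb after the nearest listed ERG start and 9.35 kb from the 3′ end of the gene. The AM-ERG cells also carried ERG sequence in the vector, and exons were not separated here. PIK3C2B, a class II phosphoinositide 3-kinase gene, had a fold of 10.0 at 33.1 kb after its start. PTPN6, which encodes the phosphatase SHP-1 that dampens erythropoietin receptor signalling, had 2 peaks, of 9.10 fold at 7.93 kb and of 3.32 fold at 2.48 kb after a listed start. NECTIN2, an adhesion receptor gene, had a fold of 8.58 at 10.4 kb after its start, and SAG, the retinal arrestin gene, a fold of 8.56 at 23.8 kb. CELF2, an RNA-binding protein gene, had a fold of 8.02 at 13.9 kb after a start and 158 kb from the nearest coding gene end. PITPNM2 had a peak of 7.94 fold at 71.4 kb after a start. Peaks of more than 7 fold were thus found both within 10 kb and more than 100 kb from the nearest listed start.

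Start-distant peaks were spread along their genes. In successive 25% stretches of the gene from the 5′ to the 3′ end they numbered 29, 19, 26 and 18 of 92, where the peaks at internal starts numbered 51, 30, 18 and 6 of 105. The median position was 47.3% of the gene's length (33.2 to 58.3%) for start-distant peaks and 25.9% (16.6 to 32.5%) for the others. The groups were defined by distance from listed starts, so this contrast follows in part from where starts lie. For start-distant peaks, the nearest listed start of the host gene was a median of 12 kb (8.79 to 23.5) away, and 26 of 92 (28.3%) had it within 5 kb. The host genes were long: the median was 82.7 kb (56.3 to 120) for start-distant peaks, 51.6 kb (42.8 to 79.4) for those at internal starts and 24.2 kb for all protein-coding genes. A long gene has more sequence away from its ends, so long hosts follow in part from the rule.

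**Figure D5:**
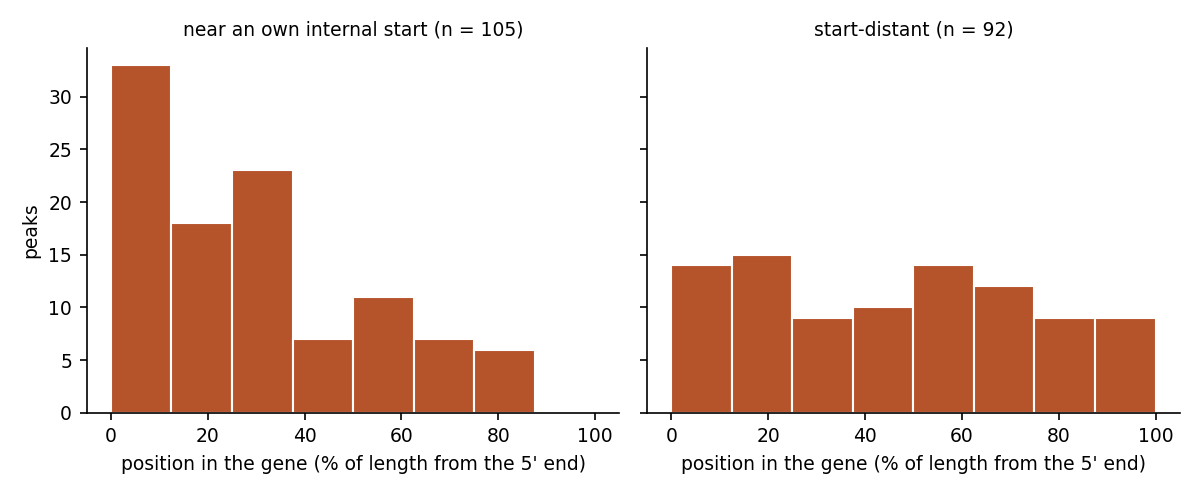
Position of the summit along the host gene in percent of its length from the 5′ end, for 105 peaks near an internal start of the gene (left) and 92 start-distant peaks (right). The left distribution is highest near the 5′ end, and the right one is spread over the whole gene.

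Over all 19974 protein-coding genes, 248 held an interior peak, or 1.24%. The share was lowest in short genes: it was 0.283% up to 10 kb, 1.18% from 10 to 30 kb, 1.41% from 30 to 100 kb, 2.75% from 100 to 300 kb and 2.46% above. Short genes have little or no sequence over 1 kb from an end, so a rise with length is in part built into the rule. Density by gene length is not given here. Of the 248 genes, 238 held 1 interior peak, 9 held 2 and MAML3, a Notch coactivator gene, held 3. The MAML3 peaks, of 3.59, 4.39 and 5.61 fold, were spread over 322 kb, and all were start-distant. The strongest of them stood on a raised background of 8.45 fragments. CD33, a myeloid surface receptor gene, had 2 peaks of 4.22 and 4.68 fold only 717 bp apart, 173 and 890 bp after the same start. KLF12 had 2 peaks of 2.74 and 4.72 fold that were 925 bp apart around a start, 125 bp after it and 800 bp before it. Other pairs lay farther apart. In ECE1 (3.41 and 6.18 fold, 54.7 kb apart) and LITAF (3.10 and 3.45 fold, 26.9 kb apart), 1 peak of each pair was at an internal start and the other start-distant. In PITPNM2 (4.79 and 7.94 fold, 73.4 kb apart), PTPN6 (5.45 kb apart) and VASP, an actin regulator gene (4.29 fold on a raised background of 7.85 fragments and 5.0 fold, 6.14 kb apart), both were start-distant. PLEC, the plectin gene, had peaks of 5.51 and 5.60 fold 14.1 kb apart, and no start was listed for it.

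In the gene lists, which were chosen with earlier results of these data known and so are no independent evidence, 28 of 485 signalling, chromatin and transcription factor genes held an interior peak, or 5.77% (4.02 to 8.22%), where all protein-coding genes gave 1.24%. The same lists were also high for peaks at gene ends, which 68 of the 485 genes (14.0%) had, against 5.86% of all genes, and 7 of 28 (25%) in the ETS family. These genes had a median length of 46.3 kb against 24.2 kb for all. For 11 of the 28 genes an interior peak was near an internal start. ETS family genes had 5 of 28 (17.9%, 7.88 to 35.6%): ERG, ETS1 (fold 7.86, 38.8 kb from the nearest coding gene end), FLI1 (4.77), ELF2 (4.76) and ERF, an ETS repressor gene (3.18). The ELF2 summit was 262 bp before an internal start and the ERF summit 28 bp after one. The FLI1 peak lay 934 bp from SENCR, a noncoding gene that overlaps FLI1. No start was listed for ETS1 or FLI1. Their 5 values thus cover an internal start, a noncoding neighbour and the start-distant interior.

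Genes of erythropoietin, JAK and STAT signalling had 3 of 39 (7.69%). JAK1, a receptor-associated tyrosine kinase gene, had a fold of 4.92 with its summit 358 bp after an internal start, 102 kb from the nearest coding gene end. GRB2, an adaptor gene, had a fold of 4.45 at 82 bp from the pseudogene RPL36AP7, and PTPN6 is described above. Actin and myosin regulators had 4 of 44, EVL (7.45), VASP (5.0 and 4.29), TPM1 (3.86) and TPM3 (3.78), the last pair near internal starts of these tropomyosin genes. Corepressor and histone deacetylase genes had 3 of 41 (7.32%). Among them, CTBP2 had a fold of 5.58 and EZH2 of 4.98, both start-distant. HDAC7, the deacetylase in the title of the study, held no listed peak inside it. The cell cycle genes CCND3 (4.20) and E2F3 (3.90), 2 of 33, both had their summit within 200 bp after an internal start. BCL2L1 (5.4) and BCL2L13 (4.13) were the 2 of 20 genes of the BCL2 family. The BCL2L1 peak was 536 bp from BCL2L1-AS1, and the BCL2L13 peak 76 bp before an internal start.

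Nuclear receptor genes had 2 of 33, RARA and PPARD (4.18), and integrin and adhesion genes 2 of 33, FERMT3, which encodes the integrin activator kindlin-3 (5.75, summit 465 bp before an internal start), and PTK2 (3.78). Other pathway lists had 1 gene each: ZFPM1, the gene of the GATA1 cofactor FOG1 (5.90, 2.70 kb after a listed start), among 31 erythroid factor and membrane genes, TET3 (4.42) among 33 histone and DNA modifier genes, SPRY2 (4.38, 32 bp after an internal start) among 42 MAPK and RAS genes, and MAML3 among 35 Notch and WNT genes. Stem and progenitor factors had 0 of 30 (Wilson upper bound 11.4%), so that RUNX1, of 262 kb, and TAL1 held no interior peak, nor did GATA1 and KLF1 of the erythroid list or PTPN11. The 8 marker lists, with erythroid markers among them, had 2 of 76 (2.63%, 0.725 to 9.10%): ESAM (5.53, endothelial, 434 bp from ESAM-AS1) and GAD1 (4.79, neuronal, 36 bp after an internal start). The 6 remaining marker lists, erythroid markers included (0 of 14, upper bound 21.5%), had none. The share over all protein-coding genes was 1.24%. It lies within the intervals of the pooled marker lists, the stem and progenitor factors and each pathway list above with 1 gene. These counts set none of them apart from other genes.

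By chromosome, interior peaks were densest on chromosome 19, with 34 peaks and 1.19 per Mb of gene interior (0.821 to 1.66), against 0.210 over all chromosomes. Of these 34, 18 were near an internal start and 11 start-distant. The median background there was 4.30 fragments, and without raised backgrounds the density was 1.01 (0.677 to 1.45). Chromosome 22 followed with 10 peaks and 0.547 per Mb (0.262 to 1.01). Chromosomes 5 (5 peaks, 0.0737 per Mb) and 7 (5 peaks, 0.0695 per Mb) were the 2 whose intervals lay below 0.210. No starts were listed for chromosome 8, so none of its 16 interior peaks could be assigned to a start.

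At the limit of the rule, the 5 interior peaks nearest to a coding gene end were those of E2F3 (1039 bp, fold 3.90), SPRY2 (1051 bp, 4.38), PEX2 (1087 bp, 4.63), NGFR (1102 bp, 3.41) and TNPO3 (1119 bp, 12.8). Just outside it were peaks within FGFBP3 (996 bp, 2.74), DPF3 (988 bp, 6.67), ALDOA (984 bp, 4.63), PC (982 bp, 3.11) and PPP1R16B (982 bp, 3.36). The farthest from any coding gene end were in NFIB (209 kb, fold 4.79), MAGI1 (196 kb, 4.18), ARID1B (189 kb, 4.58), LDLRAD4 (188 kb, 7.61) and BCAS3 (176 kb, 4.50). Of these 5, NFIB had its summit 443 bp before an internal start and the other 4 were start-distant.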

How the data were processed

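Per the submitters' processing notes, the authors used Bowtie2, MACS2 and deepTools on hg38; versions, settings, the control and the library called were not given in the sources used here. Without a header, the deposited list follows a layout whose columns were read by position: its MACS2 layout gives the authors' score, fold (a ratio to local background), −log10 p, −log10 q and summit offset per peak. The largest q was 0.0474.

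Pileup and background were recovered from fold, (pileup + 1)/(background + 1), and a Poisson p (within 0.001 for 100% of peaks). The 81 peaks on other sequences were not analysed here. RefSeq tables (GRCh38.p14) gave 19974 protein-coding genes, of which 15812 (79.2%) had listed starts; that table is not complete. No genome sequence or exons were used, so the planned motif search at summits was not run. The comparison with internal starts and the letters in start windows were added after the data were seen. Shares have Wilson, densities exact Poisson and medians order-statistic intervals; no test was made.

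Members and gene lists were chosen with earlier results of these data known. Named genes follow a rule: the 20 interior peaks of highest fold, the 10 of highest −log10 q, genes with 2 or more, up to 5 per list, those nearest the limit or farthest away, and 12 fixed genes. Some results for named genes are not reported here. Classification and recovery were tested on simulated data. Python 3.11.15 was used with matplotlib 3.10.9, SciPy 1.17.1, numpy 2.4.6 and pandas 2.3.3.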

Additional observations from a re-analysis of the deposited data

How the results depend on the processing

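No paired analysis was possible because AM-ERG and Vector have 1 library apiece, and no result comes from a test. Settings for internal starts and for chromosome 19 were chosen after the data were seen. For these changes the cause was not tested; a narrower window or shorter list leaves fewer peaks by construction. At more than 3 kb from every coding gene end the interior share was 11.9%, and at more than 10 kb 7.35%. The share near an internal start was then 43.1% and 41.8%, and it was 42.9% and 28.6% with the start within 500 and 200 bp. The listed genes with an interior peak numbered 11 at more than 10 kb. In the upper 50% by −log10 q they numbered 16, the median fold was 5.69, 24.2% of interior peaks were near a noncoding gene end and 3.33% of host genes also had a peak at an own end. With the whole peak inside the gene, without raised backgrounds, with all annotated genes and without chromosome 19, the values that were computed stayed within the intervals of those reported, and the listed genes numbered 24 and 27 in the first pair. The table of starts limits the rest: 46 interior peaks lay in genes with none listed.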
